A study of Mus musculus with 6 samples.

Results

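The splicing factor genes described here are the members of 10 families found by gene symbol in the count table, 81 of its 24421 genes. They comprise 11 SR protein genes (Srsf), 20 hnRNP genes (Hnrnp), 9 subunits of SF3A and SF3B (Sf3), 12 Sm and other snRNP protein genes (Snrp), 3 U2AF genes, 13 PRPF genes, 3 PTB genes (Ptbp), Rbfox1 and Rbfox2, 6 CELF genes and the pair Nova1 and Nova2. All 81 passed the filter on low counts and were tested. Snrpf and Snrpn passed it only through the group in which they were higher. Their direction, which enters the counts below, is therefore no support for them. RNA sequencing was done on primary neural stem cells from the subventricular zone of postnatal day 60 C57BL/6 mice. They were grown with EGF and FGF2, each at 20 ng/ml, and the medium was changed after 24 h. The 3 PluriSIn#2 libraries come from cells given 20 µM of this compound, which the series describes as a topoisomerase IIA inhibitor, for 3 days. The 3 DMSO libraries come from cells given the solvent. The wild-type cells of both groups carried no further agent or allele in the labels. The treatment field of PluriSIn#2 replicates 2 and 3 ends in another number than their titles, so counts were also taken with replicate 1 alone. The comparison asks which transcripts differ between cells given PluriSIn#2 and cells given DMSO. Inhibition of topoisomerase IIA is not measured by these libraries.

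Pre-mRNA splicing removes introns in the spliceosome, a machine built from small nuclear RNAs and their proteins. SR proteins mostly promote the use of exons they bind, hnRNP proteins often repress them, and the PTB, RBFOX, CELF and NOVA families set tissue-specific exon choices. In the nervous system, PTBP1 is known to hold back neuronal exons in progenitors, and a change to PTBP2 accompanies neuronal differentiation. A gene count sums all isoforms of a gene, so it carries nothing on which exons were used.

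Libraries held between 16670962 and 19241869 counts. Correlations of log2 CPM, that is counts scaled to a common library size, were 0.994 or more for libraries of the same group and 0.880 or less across groups. Whether the 3 libraries of a group stem from separate cultures is not stated. The p-values therefore speak to the spread among these libraries, and that spread may be technical. Markers of several cell types also differed in the same libraries. All 10 markers of dividing cells fell, their summed level being between 101 and 110 CPM in PluriSIn#2 and between 3694 and 3754 CPM in DMSO libraries. All 8 markers of astrocytes and quiescent stem cells rose, with sums between 11592 and 11816 CPM in PluriSIn#2 and between 3271 and 3297 CPM in DMSO. Of 11 macrophage markers 9 were tested and all 9 rose, with sums between 155 and 159 CPM in PluriSIn#2 and between 2.53 and 3.14 CPM in DMSO, where Trem2 had no read. Of the tested markers, 7 of 8 for mural cells and fibroblasts, 5 of 6 for endothelium and 5 of 5 for ependyma rose, and 6 of 6 for the oligodendrocyte lineage fell. The mural sum was between 220 and 225 CPM in PluriSIn#2 and between 23.7 and 24.6 CPM in DMSO, and the endothelial sum between 27.1 and 30.5 CPM in PluriSIn#2 and between 5.07 and 5.80 CPM in DMSO. The ependymal sum was between 153 and 155 CPM in PluriSIn#2 and between 37.8 and 39.4 CPM in DMSO, and the oligodendrocyte sum between 746 and 752 CPM in PluriSIn#2 and between 1192 and 1248 CPM in DMSO. The part of these cell types in the results below was not tested. In bulk RNA, fewer cells of a type and less RNA per cell cannot be told apart.

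Most splicing factor genes were lower in PluriSIn#2, by moderate amounts. Of the 81 members, 69 fell and 9 rose at an adjusted p under 0.05 (edgeR quasi-likelihood fit, Benjamini-Hochberg adjusted over 14417 genes, as for all adjusted p-values here). Of all genes tested, 40.9% fell and 41.7% rose, 82.6% together. Lower calls thus made up 85.2% of members and higher calls 11.1%. At least 2-fold falls were found for 21 members (25.9%), against 11.7% of all genes, and at least 2-fold rises for 6, against 16.3% of all genes. With a filter of at least 1 CPM in 3 libraries, Snrpf and Snrpn were not tested. Then 68 members fell and 8 rose, beside 5729 and 5783 of all genes. The median log2 fold change of the members in the main fit was -0.73, and that of all genes tested was 0.01. With PluriSIn#2 replicate 1 as the only treated library, whose spread was then taken from the DMSO libraries, 69 members again fell and 9 rose.

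**Figure D1:**
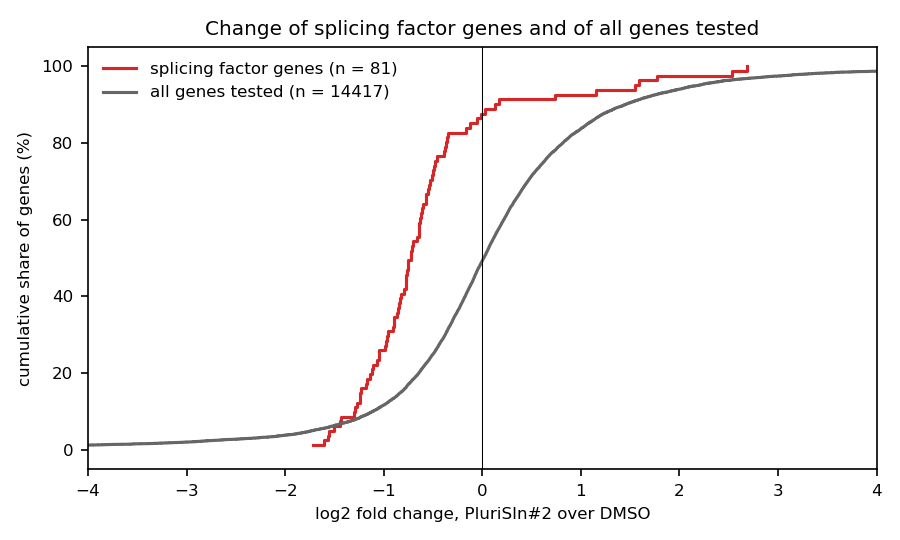
Cumulative share of genes (y axis, percent) by log2 fold change of PluriSIn#2 over DMSO (x axis), for the 81 splicing factor genes (red) and all 14417 genes tested (grey). The red curve lies left of the grey curve from about -1.3 upward, and its tail on the right holds the 9 members that rose. The x axis leaves out genes beyond 4 on either side.

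The members are abundant genes, so they were also set beside genes of like abundance. Of the 44 members averaging at least 100 CPM, 42 fell and 1, Rbfox2, rose. Among all 2685 genes at that level, 54.7% fell, and their median was -0.14 on the log2 scale. Together the 81 members took 1.11%, 1.11% and 1.11% of all counts in the PluriSIn#2 libraries and 1.87%, 1.87% and 1.89% in the DMSO libraries. The 3 treated and 3 DMSO CPM values did not overlap for 69 members that were lower and 9 that were higher, where 40.9% and 41.8% of all genes tested, 82.7% together, had such an order. The authors' deposited table also has 69 members lower and 9 higher at an adjusted p under 0.05, beside 29.5% and 30.3% of its genes.

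**Figure D2:**
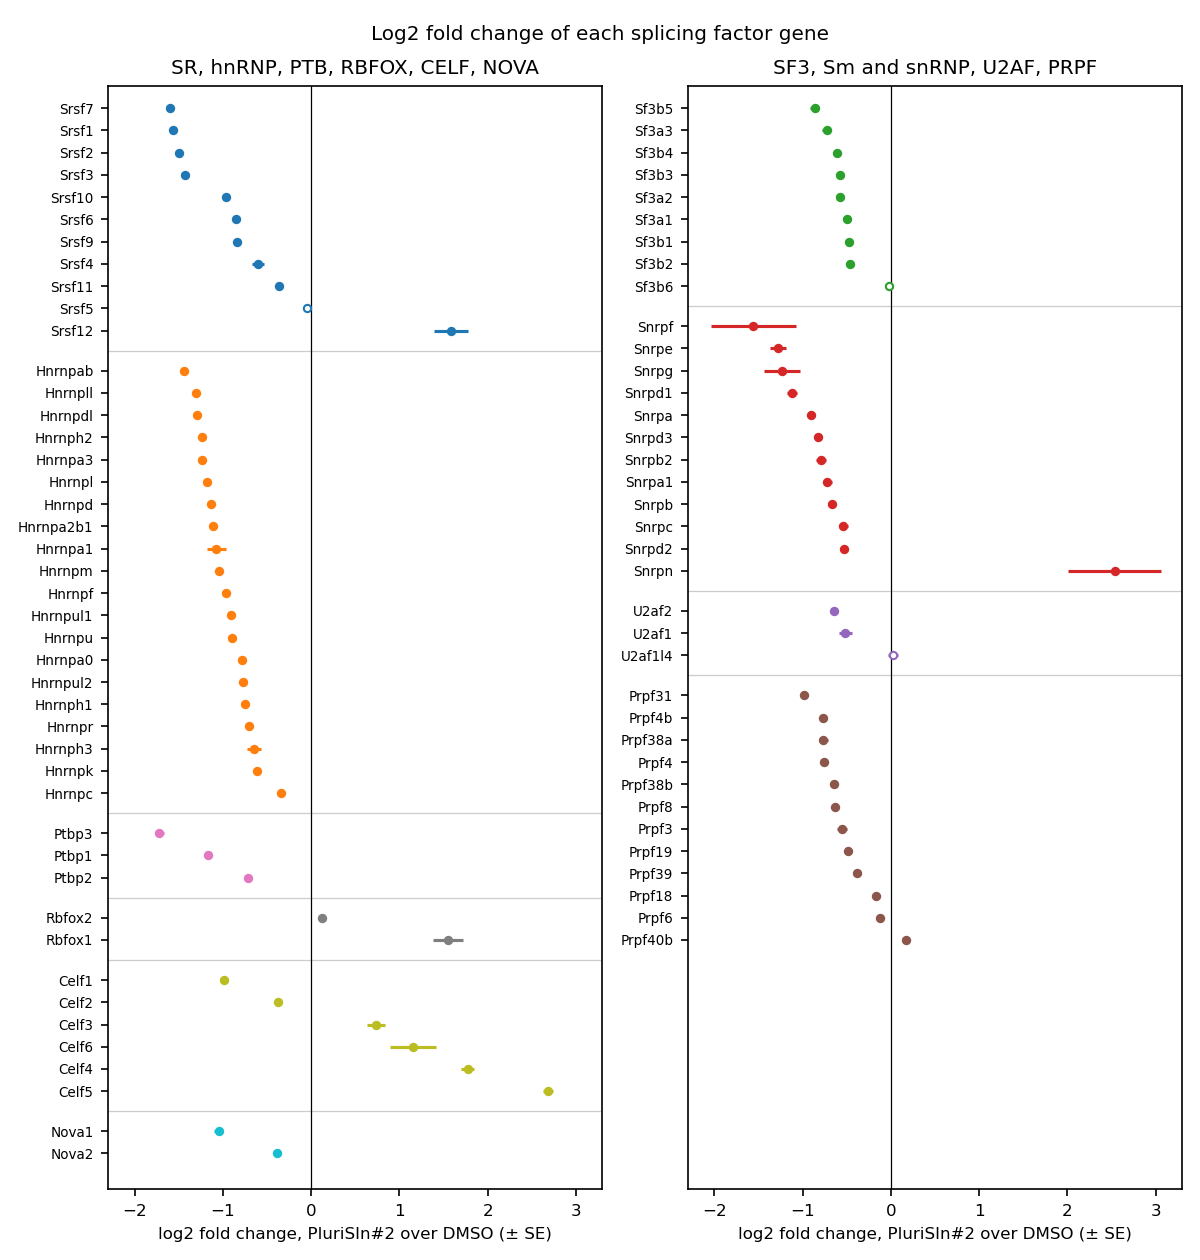
Log2 fold change of PluriSIn#2 over DMSO (x axis, with SE from edgeR as bars) for 80 of the 81 genes, grouped by family. Filled points passed the adjusted threshold and open points (Srsf5, Sf3b6, U2af1l4) did not. All hnRNP and PTB genes lie left of 0, and Celf3 to Celf6, Rbfox1, Srsf12 and Snrpn lie furthest to the right.

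Among SR proteins, which bind exonic enhancers through RNA recognition motifs and carry a tail rich in arginine and serine, 9 of 11 genes fell and 1 rose, and the family's median was -0.85 on the log2 scale. Srsf1, whose protein was the first SR factor shown to steer the choice of 5′ splice sites, had 209, 217 and 214 CPM in the PluriSIn#2 libraries and 612, 636 and 648 CPM in the DMSO libraries. Every treated value was below every DMSO value. Its log2 fold change was -1.57 (SE 0.025, edgeR adjusted p = 4.02e-70), so its level relative to the library was 33.7% of that in DMSO. Srsf1 (ENSMUSG00000018379.17) lies on chromosome 11 from 88047373 to 88053755 on the plus strand (GRCm38, the build also called mm10, here and below from GENCODE).

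Srsf2, formerly SC35 and a protein of nuclear speckles, had 159, 165 and 157 CPM in PluriSIn#2 and 442, 463 and 458 CPM in DMSO. The groups were apart by more than their spread, at -1.50 on the log2 scale (SE 0.027, edgeR adjusted p = 5.21e-66). Srsf3, the smallest SR protein, had 97.2, 94.2 and 96.2 CPM in PluriSIn#2 and 248, 261 and 266 CPM in DMSO (log2 fold change -1.43). Srsf7, a close relative of Srsf3 with a zinc knuckle, fell furthest in the family, with 74.1, 75.3 and 67.0 CPM in PluriSIn#2 and 214, 214 and 230 CPM in DMSO. Its log2 fold change was -1.60 (SE 0.036, edgeR adjusted p = 1.96e-58). Srsf6 fell less, to 219 ± 3.19 CPM in PluriSIn#2 against 396 ± 11.9 CPM in DMSO (mean ± SD, n = 3 each; -0.85). The other 4 that fell, Srsf10, Srsf9, Srsf4 and Srsf11, had log2 fold changes between -0.97 and -0.36. Of Srsf2's exonic bases, 25.3% overlap exons of Mettl23 and Mfsd11 on the other strand, and the sources used here do not give the strand setting of the counting.

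A pair of SR genes did not follow the rest, and both were named after their values were seen. Srsf5 had 253, 252 and 242 CPM in PluriSIn#2 and 260, 246 and 267 CPM in DMSO, so the groups overlapped (log2 fold change -0.05, SE 0.028, edgeR adjusted p = 0.0989). Its sign turned positive (0.02) when libraries were scaled by their totals alone. In the authors' FPKM, which also divide by gene length, Srsf5 made up 27.3%, 26.7% and 26.8% of all SR transcripts in PluriSIn#2 libraries and 15.2%, 14.2% and 15.1% in DMSO libraries. Srsf2 held 15.03%, 15.3% and 15.1% in PluriSIn#2 and 22.5%, 23.2% and 22.5% in DMSO. Srsf5 was thus the most abundant SR transcript by FPKM in treated cells, and Srsf2 in DMSO cells. Srsf12, a low-level SR gene related to Srsf10, rose to 5.30, 4.50 and 5.68 CPM in PluriSIn#2, against 1.90, 1.58 and 1.65 CPM in DMSO (log2 fold change 1.59, SE 0.19, edgeR adjusted p = 3.97e-12). Its values rest on between 28 and 97 reads a library.

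**Figure D3:**
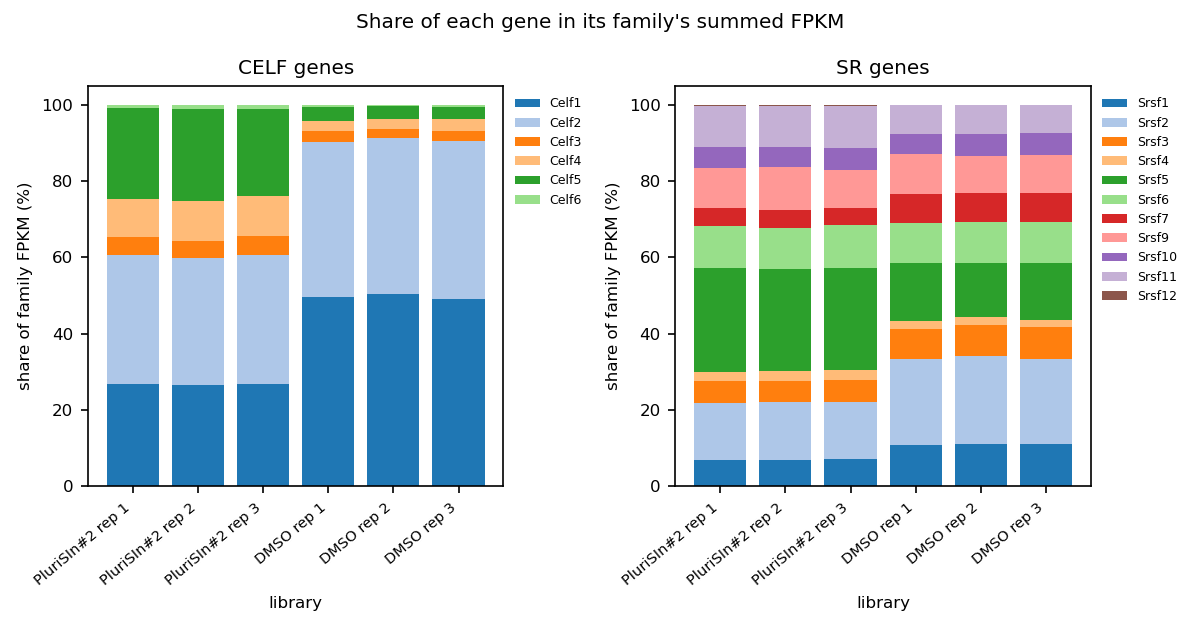
Share of each gene in its family's summed FPKM (y axis, percent) in each library (x axis), for CELF genes (left) and SR genes (right). Within each group the bars are nearly alike. Celf5 holds between 22.8% and 24.2% of CELF FPKM in PluriSIn#2 libraries and between 3.35% and 3.62% in DMSO libraries.

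The hnRNP genes fell without exception: 20 of 20 were lower, 10 of them at least 2-fold, and the median log2 fold change was -1.001 on the log2 scale. These proteins coat nascent transcripts and act in splicing, export and mRNA stability. Hnrnpa2b1, which reads exonic and transport signals in RNA, was the most abundant of all 81 members by FPKM in both groups. It had 743, 724 and 726 CPM in PluriSIn#2 and 1545, 1575 and 1621 CPM in DMSO, with no overlap. Its log2 fold change was -1.11 (SE 0.020, edgeR adjusted p = 4.71e-66). Hnrnpu, a nuclear scaffold protein that binds RNA and chromatin, had 674, 673 and 677 CPM in PluriSIn#2 and 1249, 1253 and 1263 CPM in DMSO (-0.90, SE 0.020, edgeR adjusted p = 5.79e-59).

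Hnrnpab fell furthest among hnRNP genes, to 363, 364 and 365 CPM in PluriSIn#2, against 996, 970 and 995 CPM in DMSO (-1.44, SE 0.022, edgeR adjusted p = 5.38e-72). By FPKM it stood second of the 81 members in DMSO, at 382, and at 150 in PluriSIn#2. Hnrnpll, the paralogue of Hnrnpl first known from exon choice in lymphocytes, had 73.8, 74.3 and 73.1 CPM in PluriSIn#2 and 183, 181 and 181 CPM in DMSO (-1.30). The smallest falls were in Hnrnpk (-0.62), a poly(C) binding protein, and Hnrnpc (-0.34), which binds uridine tracts. The other 13 genes apart from Hnrnpa1 lay between -1.29 and -0.64.

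Hnrnpa1 needs its own reading. Its count was low, at 7.505, 7.13 and 5.68 CPM in PluriSIn#2 and 14.0, 13.7 and 15.2 CPM in DMSO (log2 fold change -1.07). The authors' FPKM put it at 29.1 ± 1.32 in PluriSIn#2 and 74.3 ± 1.26 in DMSO (SD, n = 3 each). In the DMSO libraries, the gene length that joins its counts to its FPKM is 5.95% of its annotated exonic bases. The median of members, taken in the same way, was 52.3%. Of all 50-base words in its transcripts, 28.2% also occur in transcripts of 20 other genes, 19 of them pseudogenes. The level of Hnrnpa1 is therefore uncertain, while both measures were lower in treated cells. Shared words also made up 43.2% in Hnrnpf, 26.9% in Hnrnpa3 and 15.9% in Hnrnph2, and 29.1% of Hnrnpab's exonic bases overlap Phykpl on the other strand.

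The Sm proteins form the ring around spliceosomal RNAs, and the other Snrp genes encode proteins of the U1 and U2 particles. Of these 12 genes, 11 fell and 1 rose, with a median log2 fold change of -0.81. Snrpb, which encodes the ring protein SmB, had 142, 137 and 130 CPM in PluriSIn#2 and 226, 213 and 211 CPM in DMSO (-0.67, SE 0.032, edgeR adjusted p = 3.5e-34). Snrpd3 had 59.2, 59.4 and 56.1 CPM in PluriSIn#2 and 106, 93.4 and 111 CPM in DMSO (-0.83). Larger falls were found for Snrpd1, at 28.3 ± 1.64 CPM in PluriSIn#2 and 61.3 ± 4.24 CPM in DMSO (-1.12), and for Snrpe, at 9.89 ± 1.62 CPM in PluriSIn#2 and 24.0 ± 1.45 CPM in DMSO (-1.27). For both, the treated and DMSO values were apart by more than their spread.

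Both Snrpf and Snrpn rest on few reads, and Snrpf was named after its values were seen. Snrpf had 0, 7 and 8 reads in the PluriSIn#2 libraries and 17, 11 and 18 in the DMSO libraries (log2 fold change -1.56, SE 0.48, edgeR adjusted p = 0.0025), and the call was lost without PluriSIn#2 replicate 1 (-0.98, edgeR adjusted p = 0.0541). The authors' FPKM for Snrpf were 20.99, 25.2 and 22.1 in PluriSIn#2, the first in the library with 0 reads, and 66.0, 58.9 and 62.4 in DMSO. In the DMSO libraries, the length that joins its counts to its FPKM is 13.1 bases, 1.52% of its exonic bases. The 2 measures therefore disagree and the level of Snrpf is uncertain. Exons of other genes on the opposite strand cover 85.4% of its exonic bases. Snrpn, the neuronal SmN gene of an imprinted locus, had 17, 13 and 17 reads in PluriSIn#2 and 4, 1 and 3 reads in DMSO (log2 fold change 2.54, SE 0.53, edgeR adjusted p = 1.09e-05). Summed over libraries and scaled by library totals, 47 reads in PluriSIn#2 and 8 in DMSO give a ratio of 6.32 (exact Poisson 95% interval 2.96 to 15.5, counting error only). The authors' FPKM gave Snrpn 27.0, 27.0 and 26.9 in PluriSIn#2 and 18.6, 17.2 and 19.5 in DMSO, a ratio of 1.46. Snrpn shares exons with Snurf on the same strand, and 27.3% of its exonic bases overlap another gene on that strand. In the DMSO libraries, the length that joins its counts to its FPKM is 7.65 bases, 0.354% of its exonic bases. This length differed between the groups, since the ratios over DMSO were 6.32 in counts and 1.46 in FPKM. Counts and FPKM therefore disagree on its level, and although both were higher in treated cells they are not taken here as 2 measures of the same signal.

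The SF3A and SF3B complexes belong to the U2 particle and hold it to the branch site of the intron. Of their 9 genes 8 fell, none as much as 2-fold, with a median of -0.57 (log2 scale). Sf3b1, the largest SF3B subunit, had 337, 322 and 334 CPM in PluriSIn#2 and 448, 469 and 465 CPM in DMSO (-0.48, SE 0.025, edgeR adjusted p = 4.76e-32). Sf3b2 had 309, 307 and 308 CPM in PluriSIn#2 and 424, 432 and 418 CPM in DMSO (-0.46). Sf3b5 (-0.86) and Sf3a3 (-0.73) fell most. Sf3b6, which contacts the branch site, was not called and is named after its values were seen. It had 67.0, 65.1 and 69.4 CPM in PluriSIn#2 and 67.4, 66.0 and 70.4 CPM in DMSO (-0.02, SE 0.044, edgeR adjusted p = 0.723), and the sign turned to 0.05 with scaling by library totals.

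U2AF finds the 3′ end of the intron, its large subunit binding the polypyrimidine tract and its small subunit the AG. U2af2, the large subunit, fell to 251, 267 and 257 CPM in PluriSIn#2, against 409, 392 and 406 CPM in DMSO (-0.64, SE 0.026, edgeR adjusted p = 2.86e-39). Of the words of U2af2 14.7%, and of those of U2af1 21.7%, also occur in 3 pseudogenes each. U2af1, the small subunit, had 18.7, 18.7 and 18.0 CPM in PluriSIn#2 and 28.0, 23.7 and 27.6 CPM in DMSO (-0.51). The related U2af1l4, named after its values were seen, was not called, at 38.6 ± 1.77 CPM in PluriSIn#2 and 37.8 ± 2.21 CPM in DMSO (edgeR adjusted p = 0.637), and 65.6% of its exonic bases overlap another gene on the same strand.

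The PRPF proteins act at the catalytic core, in the tri-snRNP and in the complex around PRPF19. Of 13 genes 12 fell, none as much as 2-fold, and 1 rose, the median being -0.63 (log2 scale). Prpf8, the scaffold of the catalytic centre, had 360, 358 and 368 CPM in PluriSIn#2 and 563, 567 and 555 CPM in DMSO (-0.63, SE 0.023, edgeR adjusted p = 1.6e-42). Prpf31, which joins the U4/U6 and U5 particles, fell furthest, to 43.3, 44.2 and 42.7 CPM in PluriSIn#2, against 87.6, 81.7 and 87.3 CPM in DMSO (-0.98). Prpf19, a ubiquitin ligase of the active spliceosome, fell to 207 ± 2.40 CPM in PluriSIn#2, against 290 ± 10.3 CPM in DMSO (-0.49). The falls of Prpf6 (-0.12) and Prpf18 (-0.17), both picked after their values were seen, were the smallest. Scaling by library totals alone ended both calls, with adjusted p-values of 0.201 and 0.0619.

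Prpf40b, which takes part in early recognition of the intron with the U1 particle, was the PRPF gene that rose. It had 80.2, 78.9 and 77.2 CPM in PluriSIn#2 and 68.0, 72.2 and 69.8 CPM in DMSO (0.17, SE 0.042, edgeR adjusted p = 0.000175). The groups did not overlap, and the rise was small.

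**Figure D4:**
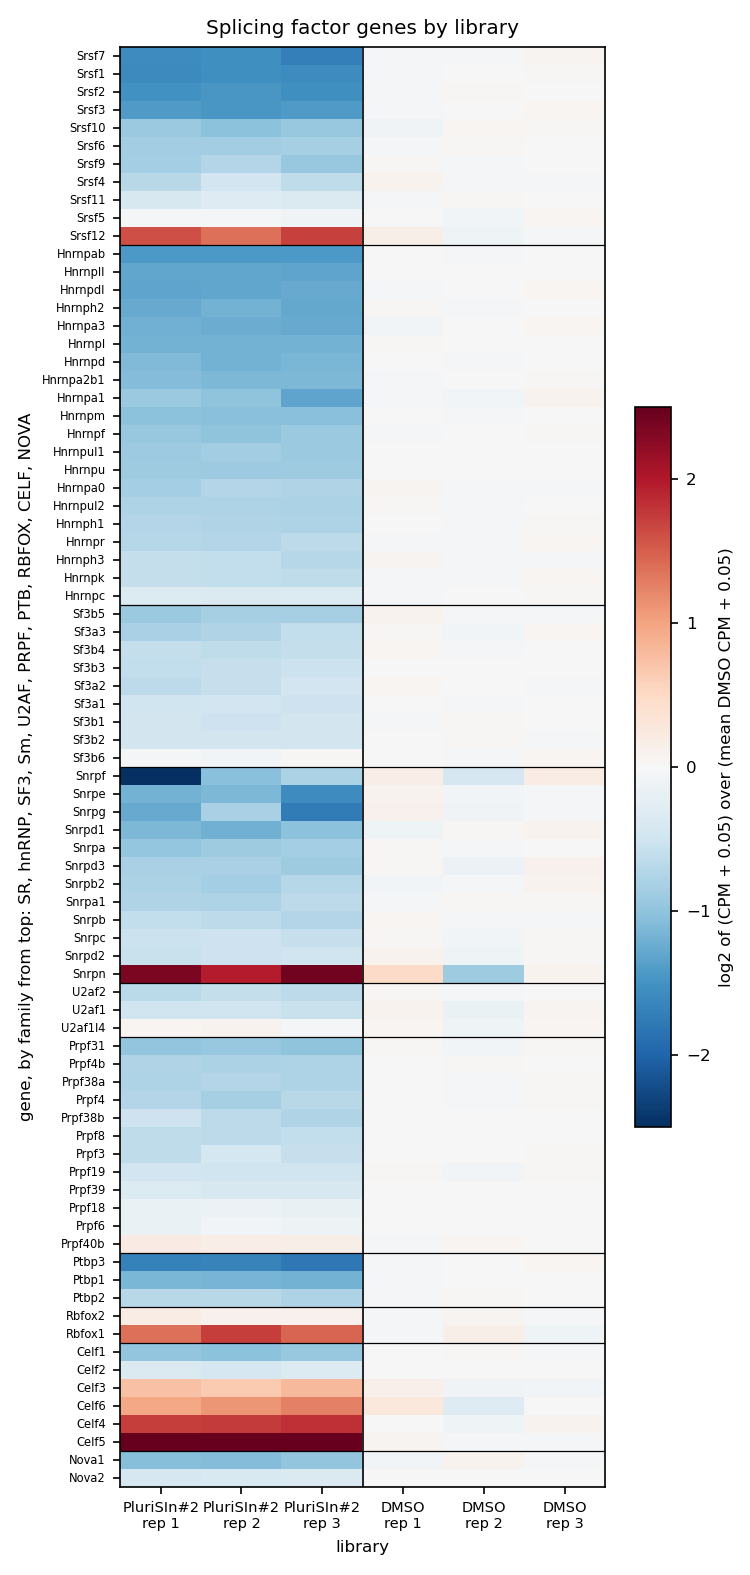
Log2 of each library's CPM over the mean DMSO CPM (colour, 0.05 added to both) for 80 of the 81 genes (rows, by family) in the 6 libraries (columns). The 3 PluriSIn#2 columns are alike and mostly blue (lower), and red rows (higher) are mainly Srsf12, Snrpn, Rbfox1 and Celf3 to Celf6. Celf5 in the PluriSIn#2 columns and Snrpf in the first lie beyond the ends of the colour scale. Snrpf has no read in PluriSIn#2 replicate 1.

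Of the regulators of tissue-specific splicing, all 3 PTB genes fell. Ptbp1, which binds pyrimidine tracts and represses neuronal exons, had 143, 141 and 139 CPM in PluriSIn#2 and 312, 319 and 318 CPM in DMSO. The groups did not overlap, and the log2 fold change was -1.17 (SE 0.029, edgeR adjusted p = 9.28e-56). Other genes on the opposite strand overlap 20.7% of its exonic bases. Ptbp2, its neuronal relative, had 103, 103 and 96.9 CPM in PluriSIn#2 and 164, 169 and 166 CPM in DMSO (-0.72, SE 0.034, edgeR adjusted p = 2.45e-34). Ptbp3, the relative best known from blood cells, fell furthest of all 81 members, to 30.0, 30.4 and 28.2 CPM in PluriSIn#2, against 95.5, 96.2 and 100 CPM in DMSO (-1.72, SE 0.049, edgeR adjusted p = 5.82e-51). Ptbp1 remained the main PTB transcript by FPKM, at 56.8, 56.3 and 56.7 in PluriSIn#2 and 121, 122.6 and 121 in DMSO, beside 30.8, 30.8 and 28.9 in PluriSIn#2 and 46.5, 48.0 and 47.2 in DMSO for Ptbp2. The FPKM ratio of Ptbp1 to Ptbp2 was 1.88 in PluriSIn#2 and 2.57 in DMSO.

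The RBFOX genes encode readers of the GCATG motif. Rbfox1, the neuronal and muscle member, rose to 5.92, 7.57 and 6.21 CPM in PluriSIn#2, against 2.19, 2.48 and 2.08 CPM in DMSO (1.55, SE 0.17, edgeR adjusted p = 9.8e-14). The groups did not overlap, but each value rests on between 39 and 138 reads. Rbfox2, the widely expressed member, was 139 ± 4.22 CPM in PluriSIn#2 and 127 ± 5.34 CPM in DMSO, a small rise of 0.13 (SE 0.034, edgeR adjusted p = 0.000488). By FPKM, Rbfox1 held between 5.33% and 6.98% of the pair's transcripts in PluriSIn#2 and between 2.22% and 2.45% in DMSO.

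CELF proteins bind GU-rich RNA. The broadly expressed Celf1 and Celf2 fell, and the 4 others, which are known mainly from the nervous system, rose. Celf1 had 196, 191 and 200 CPM in PluriSIn#2 and 390, 394 and 380 CPM in DMSO (-0.99, SE 0.027, edgeR adjusted p = 1.95e-52). Celf2 had 289, 278 and 294 CPM in PluriSIn#2 and 371, 372 and 371 CPM in DMSO (-0.37). Celf5 had the largest fitted log2 fold change of the 81 members, ahead of Snrpn, whose value of 2.54 is too imprecise to rank against it. Celf5 had 97.8, 97.8 and 95.7 CPM in PluriSIn#2 and 15.97, 14.7 and 14.7 CPM in DMSO. That is 6.41-fold (log2 fold change 2.68, SE 0.056, edgeR adjusted p = 2.15e-61). The Celf5 gene (ENSMUSG00000034818.16) spans positions 81459227 to 81482709 of chromosome 10, minus strand. Celf4 rose to 37.6, 38.3 and 40.5 CPM in PluriSIn#2, against 11.3, 10.52 and 12.1 CPM in DMSO (1.78, SE 0.075, edgeR adjusted p = 4.68e-38).

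Celf3 (0.74) and Celf6 (1.15) also rose. Celf6 had 2.14, 2.36 and 2.64 CPM in PluriSIn#2 and 1.29, 0.844 and 1.07 CPM in DMSO, from at most 45 reads a library. The summed FPKM of the 6 CELF genes was 94.2, 92.1 and 95.7 in PluriSIn#2 and 96.3, 96.0 and 94.3 in DMSO, so these ranges overlapped. Their summed CPM, which is not divided by length, was 637, 620 and 647 in PluriSIn#2 and 799, 800 and 786 in DMSO, with no overlap. By FPKM, Celf3 to Celf6 together made up 39.3%, 40.1% and 39.3% of the family's sum in PluriSIn#2 and 9.78%, 8.78% and 9.42% in DMSO. Of 10 markers of neurons and neuroblasts, 6 rose, 2 fell (Map2 and Gap43) and 2 were not called. Their summed level was between 607 and 610 CPM in PluriSIn#2 and between 1104 and 1161 CPM in DMSO, of which Map2 gave a mean of 383 CPM in PluriSIn#2 and 892 CPM in DMSO, and none was at 0 in either group. Their part in the rise of Celf3 to Celf6 and Rbfox1 was not tested.

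**Figure D5:**
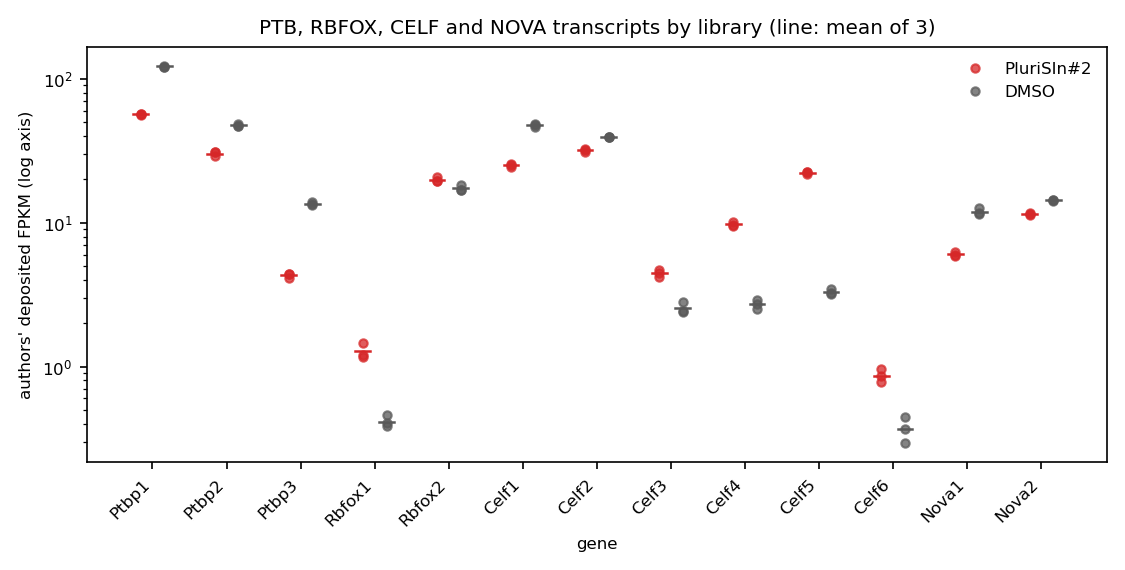
The authors' FPKM (y axis, log scale) of the PTB, RBFOX, CELF and NOVA genes in each PluriSIn#2 library (red, left) and DMSO library (grey, right), with lines at the mean of 3. Celf5 stands near 22 FPKM in PluriSIn#2 and near 3.3 FPKM in DMSO, and Ptbp1, Ptbp2 and Ptbp3 are all lower in PluriSIn#2.

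Both NOVA genes, which encode KH-domain RNA-binding proteins of neurons, fell. Nova1 had 41.7, 40.9 and 43.8 CPM in PluriSIn#2 and 83.6, 92.1 and 85.6 CPM in DMSO (-1.05, SE 0.047, edgeR adjusted p = 4.2e-36). Nova2 had 94.0, 95.8 and 97.2 CPM in PluriSIn#2 and 126, 126 and 125 CPM in DMSO (-0.39, SE 0.036, edgeR adjusted p = 2.19e-17). Both groups were apart by more than their spread for each gene. Of Nova2's exonic bases, 31.7% overlap an annotated gene on the opposite strand.

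Paralogues were compared directly by their log2 ratio within each library, over 11 pairs, of which 10 are given. The 3 treated and 3 DMSO ratios did not overlap for any of the pairs. Of all genes tested, 82.7% had CPM values without overlap, and ratios of other gene pairs were not taken. The lack of overlap is therefore not read as particular to these pairs. The two-sided exact permutation test gave p = 0.1 for each, also after Benjamini-Hochberg adjustment over the 11 pairs, which is the smallest p that 3 against 3 libraries allow, so no pair can pass 0.05. Srsf10 over Srsf12 shifted by -2.56, Rbfox1 over Rbfox2 by 1.41 and Nova1 over Nova2 by -0.66 on the log2 scale (PluriSIn#2 minus DMSO). Celf1 over Celf2 shifted by -0.61, Ptbp1 over Ptbp2 by -0.45 and Ptbp1 over Ptbp3 by 0.55. The ratio of Hnrnph1 to Hnrnph2 shifted by 0.49, that of Hnrnpd to Hnrnpdl by 0.15 and that of Hnrnpl to Hnrnpll by 0.12. Snrpn over Snrpb shifted by 3.47 in counts and by 1.15 in FPKM, with the reservation on Snrpn's reads given above.

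Splicing genes outside these families mostly fell too. Of 28 SR-related proteins and kinases 21 fell and 7 rose (median log2 fold change -0.51). Srrm2, a large scaffold of nuclear speckles, stood at 616 ± 3.76 CPM in PluriSIn#2 and 1269 ± 19.6 CPM in DMSO (-1.04). Its fellow speckle scaffold Son fell little, to 637 ± 11.2 CPM in PluriSIn#2, against 681 ± 10.9 CPM in DMSO (SD, n = 3 each; -0.10, edgeR adjusted p = 3.73e-05). The 7 that rose include the SR protein kinases Clk1 (0.54) and Clk4 (0.45) and the neuronal splicing factors Srrm3 (1.26) and Srrm4 (0.42), chosen after their values were seen. Of 53 other snRNP and spliceosome proteins 39 fell, 7 rose and 7 were not called (median -0.42), among them the U1 protein gene Snrnp70 (-0.64) and the branch point binder Sf1 (-0.61).

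Of 10 LSm genes, whose proteins ring the U6 RNA or act in mRNA decay, 8 fell and 2 were not called (median -0.96), and 2 of the list were called higher when libraries were scaled by totals alone, with Lsm4 at -0.96 and Lsm6 at -0.75. Of 13 genes for assembling Sm rings 12 fell and 1 was not called (median -0.67), among them the methyltransferase gene Prmt5 (-0.79) and the scaffold gene Strap (-0.22). Of 15 exon junction and nonsense-mediated decay genes 14 fell and 1 was not called (median -0.38), and 1 was called higher with that scaling, with the helicase gene Upf1 at -0.44 and the kinase gene Smg1 at -0.44. Of 28 other regulators of alternative splicing 26 were tested, of which 18 fell, 5 rose and 3 were not called (median -0.48). Qk, which steers glial splicing, was at 1093 ± 11.1 CPM in PluriSIn#2 and 1271 ± 39.8 CPM in DMSO (-0.22), and the helicase gene Ddx5 was at -0.48. Each of these lists had a larger share of lower calls than the 40.9% of all genes. No test of a list against other genes was made.

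Promoters are printed for Srsf1 and Srsf2, among the members that fell furthest, for the most abundant member Hnrnpa2b1, for the regulator Ptbp1 and for Srsf12, which rose, so that the letters searched can be read. RefSeq windows (GRCm38.p6) were found for 69 of the 81 members. Each line gives the 250 bases before the annotated start, with matches to 4 motifs in capitals, each searched on both strands. The E-box is CACGTG. The E2F site is GGCGGGAA or its reverse complement TTCCCGCC. The CCAAT box is CCAAT on either strand. The TATA box is TATAAA on either strand.
Srsf1 (chr11:88047123-88047372, plus strand): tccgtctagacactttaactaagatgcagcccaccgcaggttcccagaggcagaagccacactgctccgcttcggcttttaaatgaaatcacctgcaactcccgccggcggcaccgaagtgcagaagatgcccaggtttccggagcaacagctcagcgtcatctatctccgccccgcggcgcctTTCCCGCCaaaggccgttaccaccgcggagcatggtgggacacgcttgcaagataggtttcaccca
Srsf2 (chr11:116853095-116853344, minus strand): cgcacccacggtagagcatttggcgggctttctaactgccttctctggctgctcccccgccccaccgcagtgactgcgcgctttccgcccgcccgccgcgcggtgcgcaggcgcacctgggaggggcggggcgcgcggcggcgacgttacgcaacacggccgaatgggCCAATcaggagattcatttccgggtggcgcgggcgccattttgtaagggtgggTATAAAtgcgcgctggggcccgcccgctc
Hnrnpa2b1 (chr6:51469846-51470095, minus strand): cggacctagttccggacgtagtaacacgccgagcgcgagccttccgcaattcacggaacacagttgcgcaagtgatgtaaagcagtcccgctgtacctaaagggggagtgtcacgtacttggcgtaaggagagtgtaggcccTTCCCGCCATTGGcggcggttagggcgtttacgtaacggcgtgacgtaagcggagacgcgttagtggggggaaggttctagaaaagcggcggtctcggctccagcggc
Ptbp1 (chr10:79854182-79854431, plus strand): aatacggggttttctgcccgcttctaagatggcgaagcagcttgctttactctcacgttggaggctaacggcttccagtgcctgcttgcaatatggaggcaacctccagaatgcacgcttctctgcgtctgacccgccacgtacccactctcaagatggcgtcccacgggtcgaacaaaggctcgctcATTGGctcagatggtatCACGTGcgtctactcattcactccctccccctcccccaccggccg
Srsf12 (chr4:33209022-33209271, plus strand): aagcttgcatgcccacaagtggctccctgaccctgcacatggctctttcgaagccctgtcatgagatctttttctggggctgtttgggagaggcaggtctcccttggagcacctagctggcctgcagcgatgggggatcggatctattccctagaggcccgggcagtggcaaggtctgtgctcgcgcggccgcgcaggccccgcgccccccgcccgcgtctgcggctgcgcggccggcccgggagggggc
In these windows the E2F letters begin 66 bases before the start of Srsf1 and 108 before that of Hnrnpa2b1, where a CCAAT box follows them. Hnrnpa2b1 has another window, not printed, from another annotated start. There the same E2F letters begin 59 bases and the CCAAT box 51 bases before the start. Ptbp1 has a CCAAT box at 62 and an E-box at 45 bases before its start, Srsf2 has a CCAAT box at 82 and a TATA box at 29, and the Srsf12 window has none of the 4.

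Over all member windows, the E2F letters occurred in 10 of 106 (9.43%), against 3.27% of 13924 windows of genes tested and 1.86% of all 32851 windows. The 10 windows belong to 8 members, all of which fell: Srsf1, Srsf4, Srsf10, Hnrnpa2b1, Hnrnpf, Hnrnpr, Hnrnpul1 and Prpf19. Of the 69 members with a window 59 fell, so falls among these 8 are read against that share. Windows of the same gene can overlap and are not independent. The E-box was in 8.49% of member windows and 8.04% of windows of genes tested. The CCAAT box was in 41.5% of member windows and 35.1% of windows of genes tested, and the TATA box in 8.49% and 6.49%. The median GC content was 59.6% in both. A match describes these letters only, and no binding was measured.

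The deposited values do not measure transcript structure. The gene length that joins counts to FPKM can differ between groups where isoform use was taken into account. It can also differ where counts and FPKM rest on different reads, and which of these applies was not tested. This length was equal within 1% for 69 of the 74 members with at least 100 counts in every library, beside 92.8% of all 10209 such genes. The difference of PluriSIn#2 from DMSO was -5.65% for Hnrnph3, an hnRNP of the H family. It was 1.89% for Hnrnpa3, 1.83% for Hnrnpk, -1.51% for Hnrnpab and -1.14% for U2af1l4. The length for Hnrnph3 in DMSO libraries was 18.1% of its annotated exonic bases. Hnrnpa1, Snrpf and Snrpn had fewer counts and are not among the 74. For Hnrnpa1 the fitted fold over DMSO was 0.475 in counts and the FPKM ratio 0.391. These values were 0.34 and 0.364 for Snrpf and 5.80 and 1.46 for Snrpn. The fitted folds use TMM factors and the FPKM do not, so they are not scaled alike. Scaled by library totals, the count ratio was 0.351 for Snrpf and 6.32 for Snrpn. Splice forms were not measured.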

How the data were processed

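Per the labels, RNA of 3 PluriSIn#2 and 3 DMSO samples was sequenced, and samples were grouped by their titles. The submitters' processing notes name STAR, HTSeq, DESeq and mm10. No version, annotation, filter or use of strand is stated there. The deposited count table holds read counts per gene symbol, not normalized. The deposited FPKM table holds values the authors scaled for gene length and depth. It also carries the authors' log2 fold changes and p-values, and 25 of its entries whose names had turned into dates were left out.

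The 81 members and all lists were chosen with earlier results of these data known. Of 24421 genes 14417 passed filterByExpr. Tests ran under R 4.3.3, with edgeR 4.0.16 (scaling by TMM, glmQLFit, glmQLFTest, group as the only term, two-sided, threshold 0.05). CPM values use library totals of tested genes times TMM factors, and log2 fold changes are edgeR's fitted values with SE. Both are relative to the rest of the library and are not amounts per cell. Alternatives used DESeq2 1.42.0, limma 3.58.1 on log2(FPKM + 1) or log2(FPKM + 0.1), other scalings and filters, and left-out libraries. Always named were PTB, RBFOX, NOVA and CELF genes, U2af1, U2af2, Srsf1 to Srsf3, Sf3b1, Prpf8 and Snrpn. The rule added, in the 5 larger families, the 2 most abundant members and, at 5 CPM or more, the 2 largest called falls and rises. Other members named were chosen after their values were seen. The values of 1 member enter the counts but are not reported here.

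Chi-square statistics per degree of freedom were between 1.56 and 2.22 for replicate pairs, above sampling noise in each pair, and no replicates were merged. Simulated counts (13837 genes) gave a recovery by edgeR of 70% for 1.2-fold and 94% for 1.5-fold changes, and 8 unchanged genes were called. Only 50 genes were changed at each fold, with the spread of the DMSO libraries. In the data 82.6% of genes were called, so the simulation does not speak to scaling or false calls under so broad a change. Members were matched to GENCODE mouse release M21, and exon overlaps and shared 50-base words were computed from it. No molecular identifiers are named, so PCR copies may be counted.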

Additional observations from a re-analysis of the deposited data

How the results depend on the processing

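Over 16 alternatives, 77 of 81 members kept the same call wherever they were tested, and the exceptions were Srsf5, Snrpf, Prpf18 and Prpf6. The number of members that fell ran from 67 (library totals alone) to 70 (without DMSO replicate 2), and the number that rose from 7 (limma with a filter, where Rbfox1 and Celf6 were not tested) to 9. The median log2 fold change of members was -0.73, and it was -0.66 with library totals, -0.74 with PluriSIn#2 replicate 1 alone, -0.64 with log2(FPKM + 1), -0.68 with log2(FPKM + 0.1), -0.63 with log2(FPKM + 1) and no filter, and between -0.77 and -0.72 with 1 library left out. No Snrp gene rose (0) with a filter at 1 CPM, since Snrpn was then not tested, and neither was Snrpf. With either filtered limma fit 1 RBFOX gene, 1 endothelial marker and 2 ependymal markers rose, against 2, 5 and 5, from fewer genes tested. LSm genes that rose numbered 2, against 0, and exon junction genes 1, against 0, with library totals and with each of the 3 limma fits, and LSm genes between 0 and 1 with 1 library left out. With replicate 1 alone 1 oligodendrocyte marker rose, against 0, and in limma with no filter 1 ependymal marker fell, against 0. The cause was not tested for these.

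Members not called changed sign. Srsf5 was 0.0205 with library totals, 0.0201 with log2(FPKM + 1), filtered or not, and 0.0202 with log2(FPKM + 0.1), and it was called without DMSO replicate 2 (-0.09). Sf3b6 was 0.0524 with library totals, 0.0517 with log2(FPKM + 1), filtered or not, and 0.0525 with log2(FPKM + 0.1), and it ran from -0.0447 to 0.0064 with 1 library left out. U2af1l4 ran from -0.0233 to 0.0609 with 1 library left out. Prpf6 was not called with library totals or in the limma fits. All 11 paralogue ratios had the same direction in FPKM as in counts. Deviations of same-numbered libraries correlated at 0.0134, 0.0293 and -0.0025. PluriSIn#2 replicates 1 and 2 correlated best with their own number, and replicate 3 did not. Correlations this small cannot settle whether the numbers pair the samples. With the replicate block, 69 members fell and 9 rose, as without it, and 5867 of all genes fell and 5984 rose. Few reads limit the precision of Snrpg, Celf6, Srsf12 and Rbfox1. The counts of Snrpf and Snrpn are low beside their FPKM, and the cause was not tested. Gene counts carry no information on isoforms.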
